A study of Mus musculus with 6 samples.

Results

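Building a ribosome begins in the nucleolus, where RNA polymerase I transcribes the ribosomal DNA and small nucleolar ribonucleoproteins (snoRNPs) modify and help to fold the long precursor. Assembly factors then cut the precursor and load it with ribosomal proteins, and the small and large subunits leave by separate routes. Myc proteins drive many of these genes, mTOR signalling feeds into RNA polymerase I through the factor encoded by Rrn3, and a growing oocyte depends on this pathway to fill its store of ribosomes. The 50 genes described here encode subunits and factors of RNA polymerase I, snoRNP proteins, nucleolar proteins, processing and assembly factors of both subunits, and Myc and Mycn. They were chosen by symbol for these roles, with earlier results of these data known. All 50 were found among the 26329 genes of the authors' table.

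The values came from RNA sequencing of cultured mouse ovary, in a study that asked whether inhibiting the integrated stress response activates primordial follicles through mTOR. The 3 Control libraries came from ovaries kept in culture with DMSO, the solvent. The 3 ISRIB libraries came from ovaries cultured with ISRIB, a small molecule that acts on the translation factor eIF2B and restores protein synthesis under stress. The labels of these libraries state no strain, age, dose or length of culture, though newborn ICR mice are named for the study's injection experiments. Nor do they say whether replicates were separate animals or cultures, so that p-values reflect a spread between libraries that may be technical.

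Values are FPKM, fragments per kilobase of transcript at a common depth, which correct a read count for gene length and sequencing depth. The reads recovered from them summed over all genes to 34474821 to 38002135 a library. Reads not counted for a gene are not included. All 50 genes had a mean of at least 1 FPKM over the 6 libraries and entered the test, as 12922 genes did in all. All marker genes listed for oocytes, granulosa cells and stroma had a mean of 1 FPKM or more, in keeping with the label ovary. Of 7 marker lists, the summed levels overlapped between the groups except those of endothelium, at 130 to 138 FPKM in Control and 106 to 119 in ISRIB. Of the immune markers 6 of 8 reached 1 FPKM, and the T cell gene Cd3e was the lowest at 0.0476. The part of cell composition in the values below was not tested, and in whole ovaries fewer cells of a type and less RNA per cell cannot be told apart.

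In 42 of the 50 genes a RefSeq promoter window was matched by symbol (GRCm38.p6, 250 bases before to 50 after an annotated start, 53 windows in all). The letters CACGTG, the E-box that Myc with its partner Max is known to bind and which reads the same on both strands, were searched in them. They were present for 10 of the 42 genes, or 23.8%, beside 20.9% of the 91 other genes of the pathway with a window, 11.8% of the 10342 tested genes with a window and 8.09% of all 27025 genes in the RefSeq table. In 7 of the 10 genes the match lay after the start and in 3 before it. All 11 matches are shown because Myc is the regulator most often named for this pathway and the 10 genes are described again below. Capitals mark the E-box, and each sequence is written in the direction of its gene.
Rrn3, chr16:13780472-13780501, plus strand: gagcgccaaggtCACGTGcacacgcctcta
Rrn3, chr16:13780639-13780668, plus strand: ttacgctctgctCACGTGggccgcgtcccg
Nop2, chr6:125131811-125131840, plus strand: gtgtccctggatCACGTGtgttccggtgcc
Pes1, chr11:3963965-3963994, plus strand: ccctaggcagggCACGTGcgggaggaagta
Utp4, chr8:106893643-106893672, plus strand: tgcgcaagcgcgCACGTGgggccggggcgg
Utp18, chr11:93885769-93885798, minus strand: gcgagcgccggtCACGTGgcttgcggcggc
Utp20, chr10:88826765-88826789, minus strand: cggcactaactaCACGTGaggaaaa
Wdr43, chr17:71616220-71616249, plus strand: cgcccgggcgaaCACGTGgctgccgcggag
Tsr1, chr11:74898092-74898121, plus strand: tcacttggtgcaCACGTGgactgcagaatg
Pno1, chr11:17211540-17211564, minus strand: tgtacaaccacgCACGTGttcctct
Ltv1, chr10:13193092-13193121, minus strand: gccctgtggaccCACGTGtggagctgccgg

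In Utp18, Rrn3 and Nop2 the E-box nearest to the start began 20, 48 and 60 bases before it, and Rrn3, the polymerase I initiation factor, had a further one 215 bases before its start. In the other 7 genes it began 3 to 38 bases after the start. A match is a description of these letters and not evidence of binding.

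No gene of the set differed between ISRIB and Control in the test. Of the 50 genes, 0 had a limma adjusted p under 0.05, in a fit in which 0.0% of the 12922 genes tested passed. The smallest adjusted p of the set was 0.119, for Npm1. Before adjustment, 7 of the 50 genes had a limma p under 0.05, or 14% beside 16.4% of all genes tested. For 6 of them the mean was higher in ISRIB, beside 8.71% of all genes in that direction, and for 1 it was lower, beside 7.73%. With limma's voom on whole reads recovered from the FPKM, 0 of the 50 passed as well, where 0.929% of all genes did. With the replicate number as a block 0 of the 50 passed too, beside 0.0851% of all genes. Groups did not overlap for 10 of the 50, with ISRIB above for 7 (10.8% of all genes tested) and below for 3 (12%), which is 20% together beside 22.8%. Both totals were slightly under the share of all genes, while the shares with ISRIB higher were slightly above it and those with ISRIB lower under it.

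The fold changes were also small. On the log2(FPKM + 0.5) scale they ranged from −0.14 to 0.21 with a median of 0.04, beside a median of 0.01 over all genes. The 95% interval stayed within 0.5 of 0 on that scale for 49 of the 50 genes, beside 88.6% of all genes tested, and the exception was Myc, with an interval from −0.17 to 0.51. The 50 intervals together ran from −0.35 to 0.51. Means were higher in ISRIB for 35 genes and lower for 15, a share of 70.0% higher beside 51.8% of all genes. That split moved with the scaling. It was 22 higher after TPM rescaling, where 36.0% of all genes were, and 26 higher once the trend with gene length was removed, where 48.6% of all genes were.

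**Figure D1:**
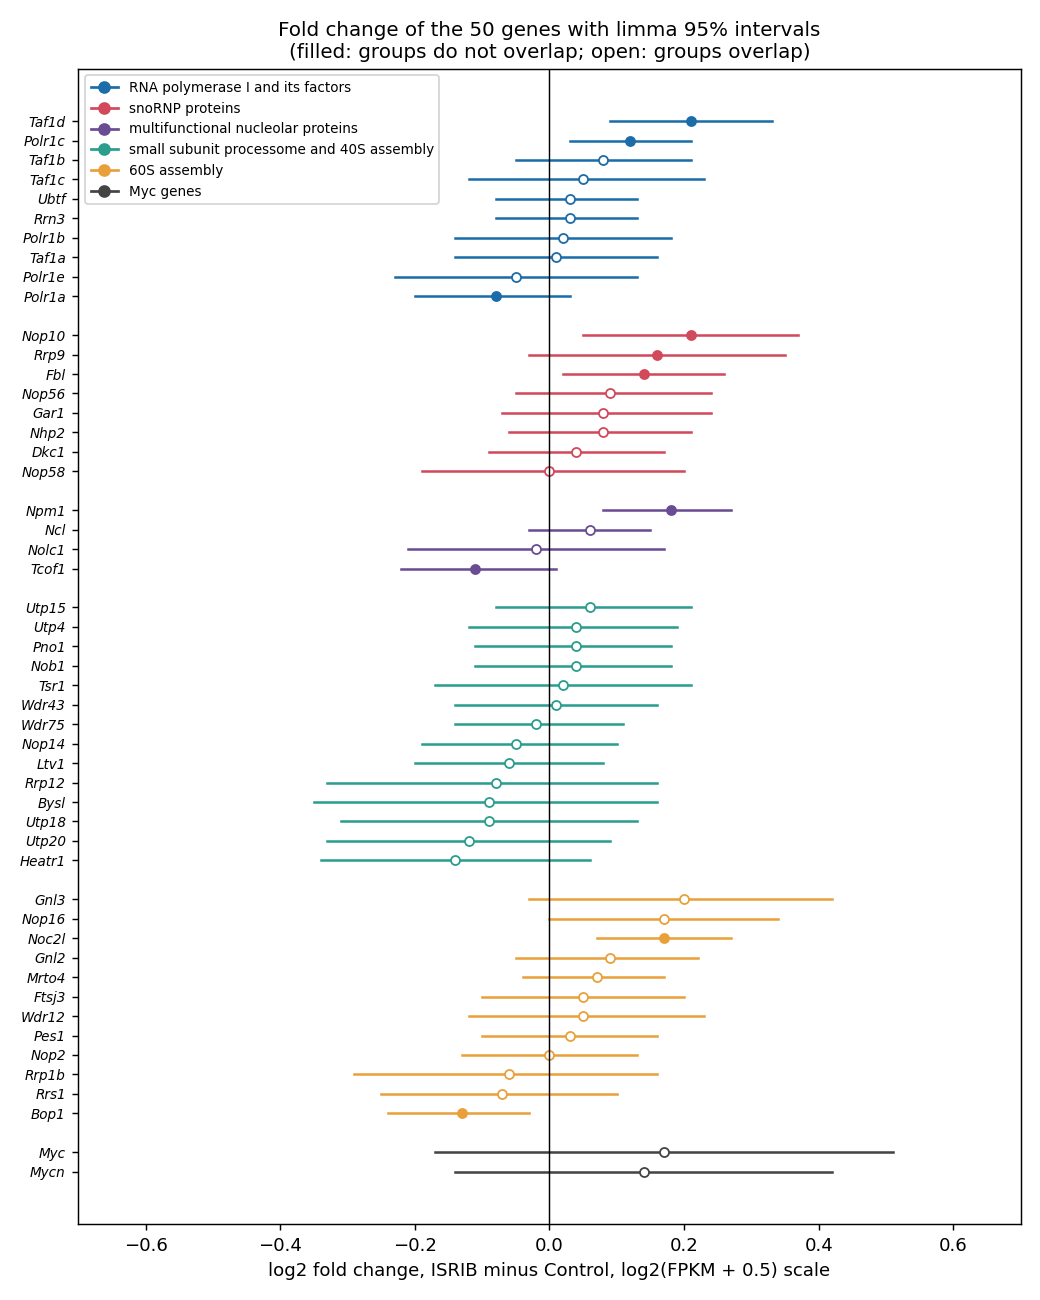
Points are log2 fold changes (ISRIB minus Control, log2(FPKM + 0.5) scale) of the 50 genes by role, and lines are limma 95% intervals from 3 libraries a group. Most intervals cross 0, and all points lie between −0.14 and 0.21.

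RNA polymerase I and its initiation factors had 8 of 10 means higher in ISRIB and a median log2 fold change of 0.03, which became −0.03 after TPM rescaling. Polr1a, the largest catalytic subunit, measured 24.7, 23.7 and 23.4 FPKM in Control and 21.5, 23.2 and 23.2 in ISRIB. All ISRIB libraries lay below Control, by a small margin (limma adjusted p = 0.461 for a log2 fold change of −0.08, SE 0.0499). Exons of an antisense gene, Gm26628, overlap it. Polr1b, the second-largest subunit, was at 7.61 ± 0.498 and 7.73 ± 0.399 FPKM (mean ± SD, n = 3 each), and Polr1e, a subunit particular to polymerase I, at 5.86 ± 0.224 and 5.64 ± 0.491. Polr1c, a subunit shared with RNA polymerase III (chromosome 17, 46243920 to 46248054, minus strand, GENCODE M21 on GRCm38), had 29.5, 28.7 and 29.4 FPKM in Control and 31.5, 31.9 and 31.9 in ISRIB. Its groups did not overlap and its replicates were close (log2 fold change 0.12, 95% interval 0.03 to 0.21, limma adjusted p = 0.205). After removal of the length trend its fold change was 0.05.

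Ubtf, which binds along the ribosomal DNA and keeps it open, measured 22.4, 22.5 and 21.7 FPKM in Control and 22.1, 22.3 and 23.4 in ISRIB. Rrn3 had 26.9, 27.9 and 28.5 FPKM in Control and 29.3, 28.0 and 27.5 in ISRIB. For both the groups overlapped, and the 95% interval of the log2 fold change was −0.08 to 0.13. Taf1a, Taf1b, Taf1c and Taf1d encode parts of the promoter selectivity complex that recruits the polymerase. Taf1a and Taf1c had log2 fold changes of 0.01 and 0.05, and Taf1b had 0.08. Taf1d (chromosome 9, 15306214 to 15316991, plus strand) measured 15.9, 15.6 and 14.5 FPKM in Control and 17.9, 17.4 and 18.1 in ISRIB. Its groups were well apart (log2 fold change 0.21, SE 0.0520, limma adjusted p = 0.126), and its fold change was 0.17 to 0.24 when single libraries were left out and 0.15 after removal of the length trend. GENCODE places 8 snoRNA genes inside Taf1d on its strand, and exons of Cep295 and of 4931406C07Rik overlap it on the other strand. Since the strand setting behind the counts is not stated, reads of such overlapping genes may not be told apart, which applies to 20 of the 50.

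The snoRNP proteins had higher means in ISRIB for all 8 genes, with a median log2 fold change of 0.09 that was 0.04 after either TPM rescaling or removal of the length trend, with 6 of 8 higher in each. Box C/D snoRNPs guide methylation of ribosomal RNA. Their methyltransferase Fbl (chromosome 7, 28169710 to 28179269, plus strand) measured 71.9, 72.5 and 73.5 FPKM in Control and 86.6, 76.9 and 77.0 in ISRIB. The groups did not overlap, and ISRIB replicate 1 stood above the other libraries (log2 fold change 0.14, SE 0.0534, limma adjusted p = 0.251, and 0.08 to 0.17 when single libraries were left out). The scaffold proteins Nop56 and Nop58 had log2 fold changes of 0.09 and 0.00, with 95% intervals of −0.05 to 0.24 and −0.19 to 0.20. Rrp9, the protein that marks the U3 snoRNP, had 12.5, 14.8 and 14.7 FPKM in Control and 17.1, 14.8 and 15.0 in ISRIB. The nearest libraries of its groups were equal after rounding (log2 fold change 0.16, adjusted p = 0.387 in limma).

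Box H/ACA snoRNPs guide pseudouridylation, and the same proteins serve telomerase. Dkc1, the pseudouridine synthase, had 21.9, 23.3 and 22.6 FPKM in Control and 24.0, 24.0 and 21.7 in ISRIB (log2 fold change 0.04, 95% interval −0.09 to 0.17). Nop10, the smallest protein of the complex (chromosome 2, 112261926 to 112263269, plus strand), measured 46.4, 40.4 and 45.5 FPKM in Control and 49.7, 48.8 and 55.0 in ISRIB. All ISRIB libraries lay above Control for Nop10 (log2 fold change 0.21, SE 0.0686, limma adjusted p = 0.203). At 747 bases it was also the shortest gene of the 50, and its fold change was 0.11 once the length trend was removed. Nhp2 and Gar1, the other core proteins, both had log2 fold changes of 0.08, and −0.01 and 0.01 without that trend.

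Of the 4 multifunctional nucleolar proteins, 2 had a higher and 2 a lower mean in ISRIB, and their median of 0.02 was −0.03 after TPM rescaling. Npm1, nucleophosmin, a histone and ribosome chaperone (chromosome 11, 33152287 to 33163206, minus strand), was the most abundant gene of the set, at 307, 308 and 319 FPKM in Control and 344, 346 and 365 in ISRIB. Its groups were clearly apart, with a mean 13.0% higher in ISRIB on the log2(FPKM + 0.5) scale (log2 fold change 0.18, SE 0.0412). In voom its adjusted p was 0.0735, the lowest of 18 alternatives in which it reached 0.0735 to 0.339, and its fold change was 0.12 after removal of the length trend. Ncl, nucleolin, which binds the nascent precursor, had 93.1, 97.1 and 93.2 FPKM in Control and 99.2, 99.3 and 96.5 in ISRIB with overlapping groups (limma adjusted p = 0.491), and its log2 fold change of 0.06 was −0.01 after quantile normalization. Tcof1, treacle, a cofactor of ribosomal DNA transcription, had 25.7, 26.6 and 25 FPKM in Control and 24.8, 22.9 and 24.0 in ISRIB. Its ISRIB libraries were the lower ones (limma adjusted p = 0.325 for a log2 fold change of −0.11), and Nolc1, a snoRNP chaperone, was at 36.2 ± 3.04 and 35.8 ± 3.45 FPKM.

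**Figure D2:**
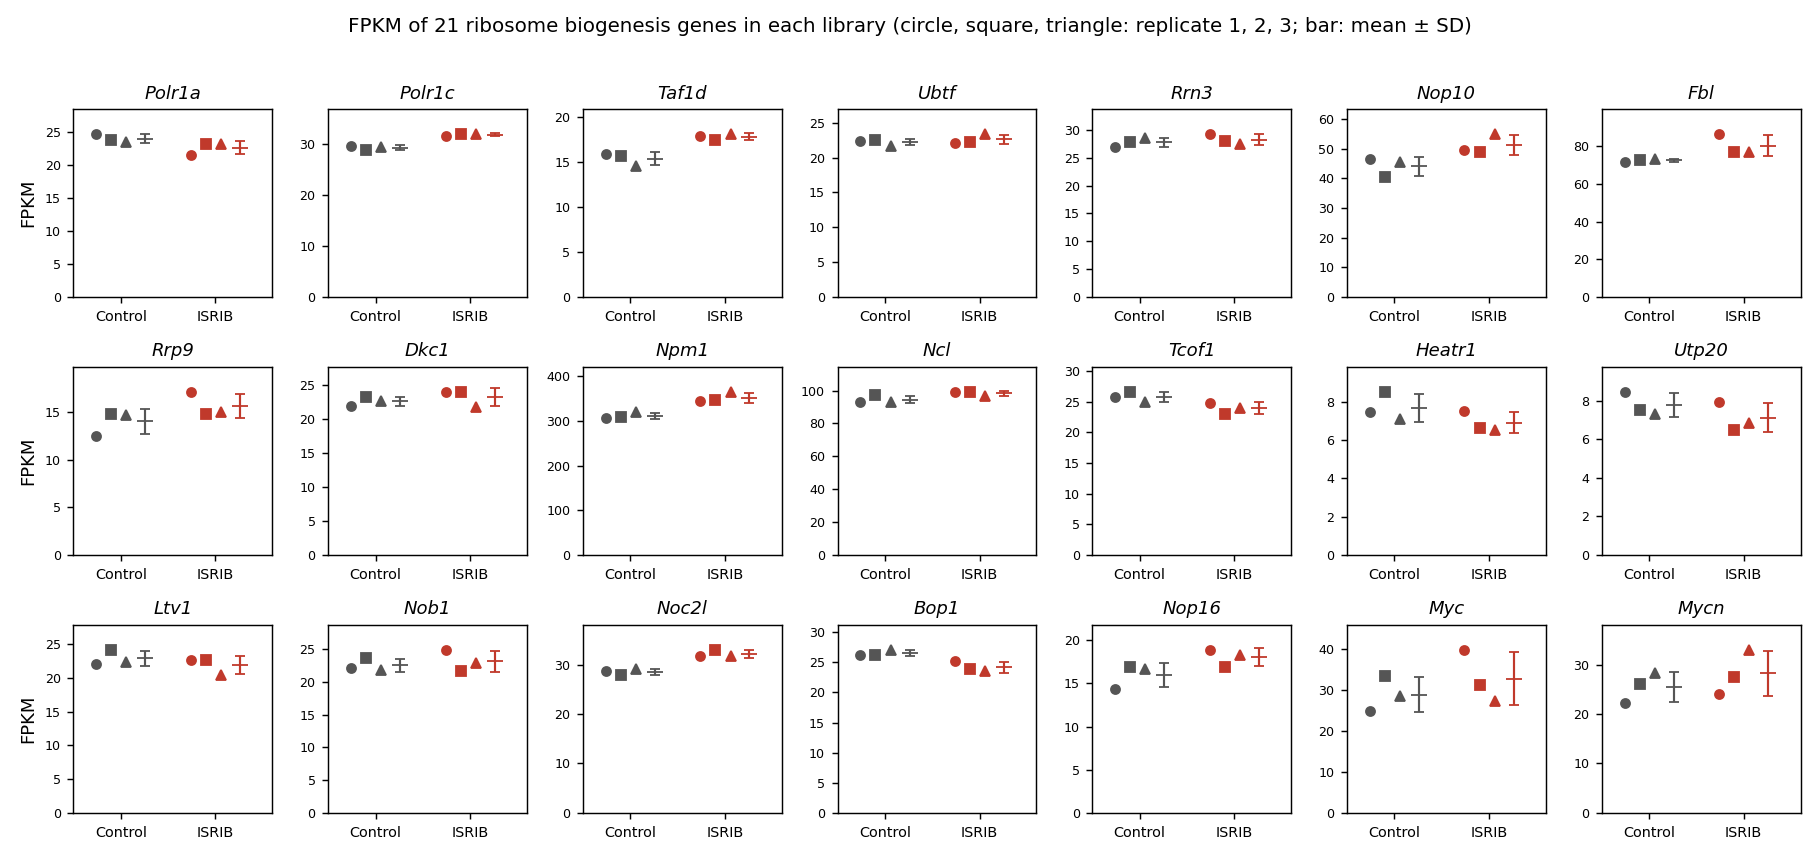
FPKM (axis from 0) of 21 genes in the 6 libraries, with circles, squares and triangles for replicates 1, 2 and 3 and bars for the mean ± SD of each group. Npm1, Taf1d, Noc2l and Polr1c have all ISRIB libraries above Control, while for Ubtf, Rrn3, Dkc1, Nob1, Myc and Mycn the groups overlap.

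Of the 14 factors that process and assemble the small subunit, 6 had a higher and 8 a lower mean in ISRIB. Their median of −0.03 was −0.09 after TPM rescaling and 0.02 without ISRIB replicate 3, and for 0 of 14 were the groups apart, beside 22.8% of all genes. A limma p under 0.05 before adjustment was found for 0 of 14 as well, beside 16.4% of all genes, and 0 passed in voom. The 42 other genes of the pathway listed as small subunit factors did not share this. Their groups were apart for 8 (19.0%), and 6 (14.3%) had a limma p under 0.05 before adjustment. These counts are small, and the difference between the 2 lists was not tested. Heatr1, a large scaffold of the processome that binds the early precursor, had the lowest p of the 14. It measured 7.43, 8.51 and 7.08 FPKM in Control and 7.51, 6.63 and 6.54 in ISRIB (limma adjusted p = 0.445 for a log2 fold change of −0.14, SE 0.0864). Utp20, another very large processome protein, had 8.47, 7.54 and 7.30 FPKM in Control and 7.96, 6.51 and 6.87 in ISRIB. For both, ISRIB replicate 1 lay within the Control range. Ltv1, a late assembly factor that leaves before the subunit matures, measured 22.1, 24.2 and 22.4 FPKM in Control and 22.6, 22.7 and 20.4 in ISRIB. Nob1, the endonuclease that makes the last cut in the small subunit RNA, had 22.1, 23.6 and 21.8 FPKM in Control and 24.9, 21.7 and 22.8 in ISRIB (log2 fold change 0.04, 95% interval −0.11 to 0.18). The direction for Nob1 turned after TPM rescaling, after removal of the length trend and without ISRIB replicate 1.

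Pno1, which partners Nob1, and the assembly factors Tsr1, Bysl and Rrp12 had log2 fold changes of 0.04, 0.02, −0.09 and −0.08. The processome proteins Utp4, Utp15, Wdr43 and Wdr75, which bind the precursor while it is being transcribed, had 0.04, 0.06, 0.01 and −0.02, and Utp18 and Nop14 had −0.09 and −0.05. The 95% intervals of these 10 genes ran from −0.35 to 0.21.

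Large subunit factors had 9 of 12 means higher in ISRIB and a median of 0.05, with 7 of 12 higher and a median of 0.02 after removal of the length trend. Noc2l, a nucleolar factor of large subunit assembly (chromosome 4, 156236010 to 156247616, plus strand), measured 28.6, 27.8 and 29.1 FPKM in Control and 31.7, 33.0 and 31.7 in ISRIB. The groups were apart (log2 fold change 0.17, SE 0.0426, limma adjusted p = 0.126), and at 3883 bases Noc2l kept a fold change of 0.17 after removal of the length trend. Exons of Samd11 overlap it on the other strand. Bop1 (chromosome 15, 76452989 to 76477277, minus strand) had 26.3, 26.3 and 27.1 FPKM in Control and 25.2, 23.9 and 23.5 in ISRIB. All its ISRIB libraries were below Control, and it was the 1 gene of the set with a lower mean and a p under 0.05 before adjustment. Its log2 fold change was −0.13 (SE 0.0465, limma adjusted p = 0.226) and −0.17 after removal of the length trend, and exons of Mroh1 overlap it on the other strand. Bop1 acts in a complex with Pes1 and Wdr12, and these partners had log2 fold changes of 0.03 and 0.05, with overlapping groups.

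Nop16 had 14.4, 16.9 and 16.7 FPKM in Control and 18.9, 16.9 and 18.3 in ISRIB, with the groups touching (log2 fold change 0.17, adjusted p = 0.315 in limma). Gnl3, nucleostemin, a nucleolar GTPase of proliferating and stem cells, had 30.7, 32.2 and 31.5 FPKM in Control and 42.7, 35.1 and 31.7 in ISRIB. The groups overlapped, ISRIB replicate 1 was the highest, and the log2 fold change of 0.20 was 0.08 without it. The related GTPase Gnl2 had 0.09. The rest were the RNA methyltransferases Nop2 and Ftsj3 at 0.00 and 0.05, Mrto4 at 0.07, Rrs1 at −0.07 and Rrp1b at −0.06. GENCODE names 2 pseudogenes after Mrto4, which could share its reads, so its level is uncertain. Pseudogenes that do not carry the symbol of their gene were not searched for, in Mrto4 or the rest of the set.

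Both Myc genes had higher means in ISRIB and a wide spread between replicates. Myc (chromosome 15, 61985391 to 61990374, plus strand) measured 24.8, 33.4 and 28.4 FPKM in Control and 39.8, 31.1 and 27.3 in ISRIB. ISRIB replicate 1 and Control replicate 2 were the highest libraries and the groups overlapped (log2 fold change 0.17, SE 0.146, adjusted p = 0.593 in limma). Leaving out ISRIB replicate 1 gave 0.02, and leaving out Control replicate 1 gave 0.07. In the other direction, the fold change was 0.28 without Control replicate 2 and 0.29 without ISRIB replicate 3. Mycn, the paralog best known from embryonic and neural tissue (chromosome 12, 12936093 to 12941914, minus strand), had 22.2, 26.0 and 28.2 FPKM in Control and 24.1, 27.5 and 33.0 in ISRIB. In Mycn replicate 3 was the highest of each group and ISRIB replicate 1 the lowest of its own, opposite to Myc (limma adjusted p = 0.601). Its log2 fold change of 0.14 (SE 0.122) was 0.02 without ISRIB replicate 3 and 0.05 without Control replicate 1. Without ISRIB replicate 1 it was 0.25, and without Control replicate 3 it was 0.21.

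The order of libraries seen for Myc recurred in many of the assembly factors. This was noticed after the values were seen and is a description with no test. ISRIB replicate 1 was the highest ISRIB library for 32 of the 50 genes, beside 33.0% of all genes tested. Control replicate 2 was the highest Control library for 27, beside 32.4%. Both held together for 21 genes, which is 42.0% beside 13.5% of all genes tested, and for 45 of the 105 other genes of the pathway, or 42.9%. Among the small subunit factors ISRIB replicate 1 was above its group's mean for 14 of 14, and ISRIB replicate 3 was the lowest ISRIB library for 11. Among RNA polymerase I genes the 2 libraries were both on top for 1 of 10. The same held for 0 of 4 box H/ACA proteins. Among the other pathway genes it held for 1 of 10 of polymerase I and 1 of 10 of the Myc network. The same 2 libraries had the highest levels of immediate early genes, which respond within minutes to handling and growth factors. Egr1 was at 127 FPKM in Control replicate 2 and 175 in ISRIB replicate 1, and at 45.5 to 55.3 in the other 4. Fos was at 18.1 and 25.6 in those 2 libraries and at 5.42 to 9.78 in the others. The part of this library difference in the fold changes was not tested beyond leaving libraries out, which gave a median of 0.01 for the 50 genes and 25 of 50 higher without ISRIB replicate 1, and 0.06 and 35 of 50 without Control replicate 2.

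**Figure D3:**
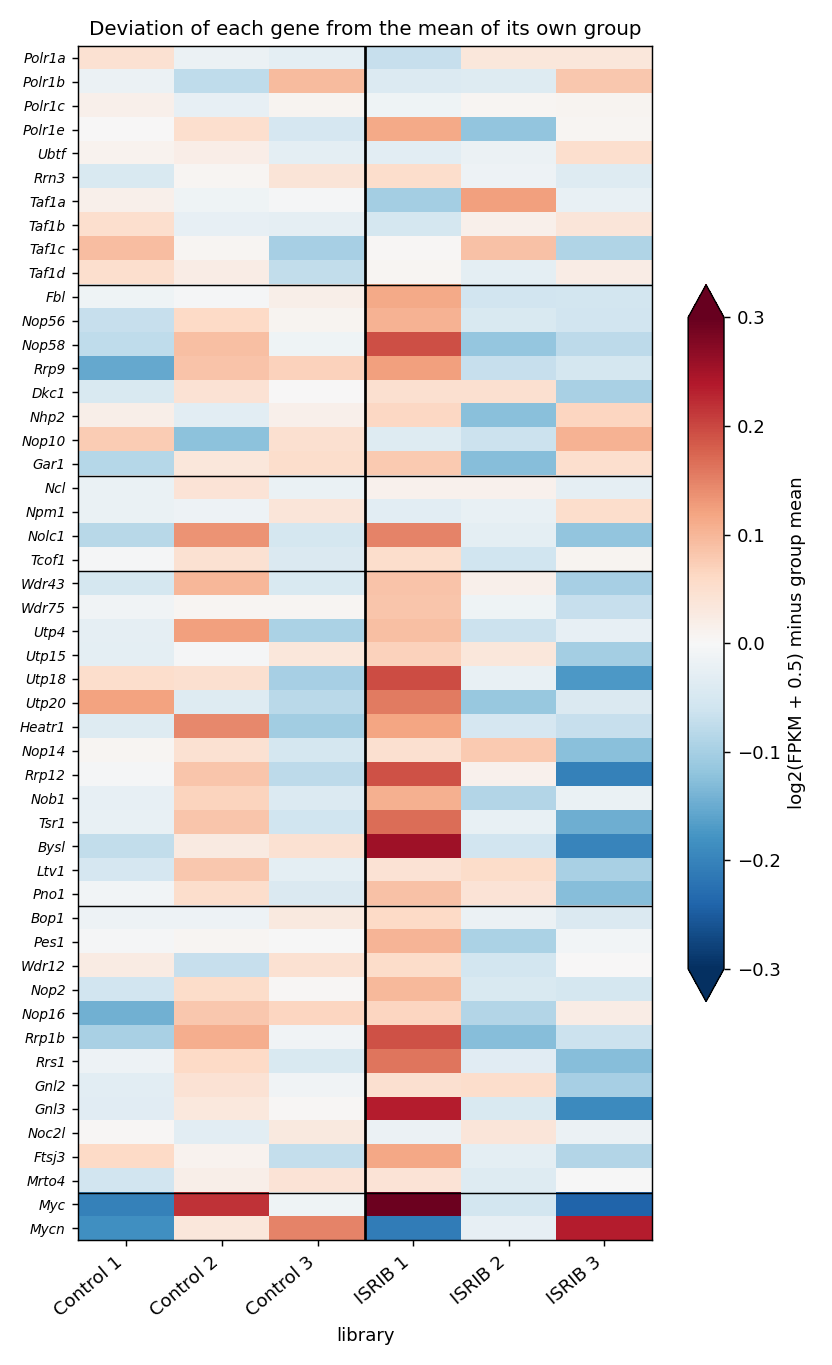
Colour is each gene's log2(FPKM + 0.5) minus the mean of its own group, for the 50 genes by role (rows) in the 6 libraries (columns). ISRIB replicate 1 is above its group's mean for 40 genes and Control replicate 2 for 36, with RNA polymerase I genes as the group that least shares this.

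The 10 genes with an E-box in the window, shown above, had log2 fold changes from −0.12 to 0.04 with a median of 0.01, and 0 of 10 had groups apart. The 32 genes with a window and no E-box ranged from −0.14 to 0.21 with a median of 0.05, and 6 had groups apart, beside 22.8% of all genes. ISRIB replicate 1 was the highest ISRIB library for 9 of the 10 E-box genes and for 17 of the 32 without, beside 33.0% of all genes. Control replicate 2 was the highest Control library for 7 of 10 and 15 of 32, beside 32.4% of all genes. These are counts in a small set and carry no test. Of the E-box genes, Ltv1, Pno1, Tsr1, Utp4, Utp18, Utp20 and Wdr43 are small subunit factors. In that role ISRIB replicate 1 was the highest for 12 of 14, Control replicate 2 for 10 of 14, and groups were apart for 0 of 14. Wdr75, Utp15, Heatr1, Nop14, Nob1 and Bysl share that role and had a window without an E-box. ISRIB replicate 1 was highest in its group for all of them but Nop14, and Control replicate 2 for all but Utp15 and Bysl. Among the E-box genes of that role the exceptions were Ltv1 for ISRIB replicate 1, and Utp18 and Utp20 for Control replicate 2. These libraries were thus mostly on top in this role with or without an E-box. Whether the E-box adds to role was not tested in so few genes.

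Fold change went down with gene length within the set, as it did across the table. Spearman's rho across the 50 genes was −0.470 and Pearson's r −0.491, beside −0.361 and −0.318 over the 12922 genes tested, where lengths are those implied by the FPKM and genes of the same libraries are not independent. The 25 shortest genes had a median of 0.08 with 20 higher in ISRIB, and the 25 longest had a median of 0.02 with 15 higher. After removal of the trend from each library both medians were near 0, at 0.00 and 0.01. The correction, fitted over all genes tested, is built to bring short and long genes together. Of the 7 genes with an unadjusted p under 0.05, Polr1c, Nop10 and Fbl lay at the short end, with lengths of 747 to 1447 bases and fold changes of 0.05 to 0.11 after that removal. Noc2l and Bop1 had fold changes at least as large in size after it as before, and Taf1d and Npm1 had 0.15 and 0.12.

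**Figure D4:**
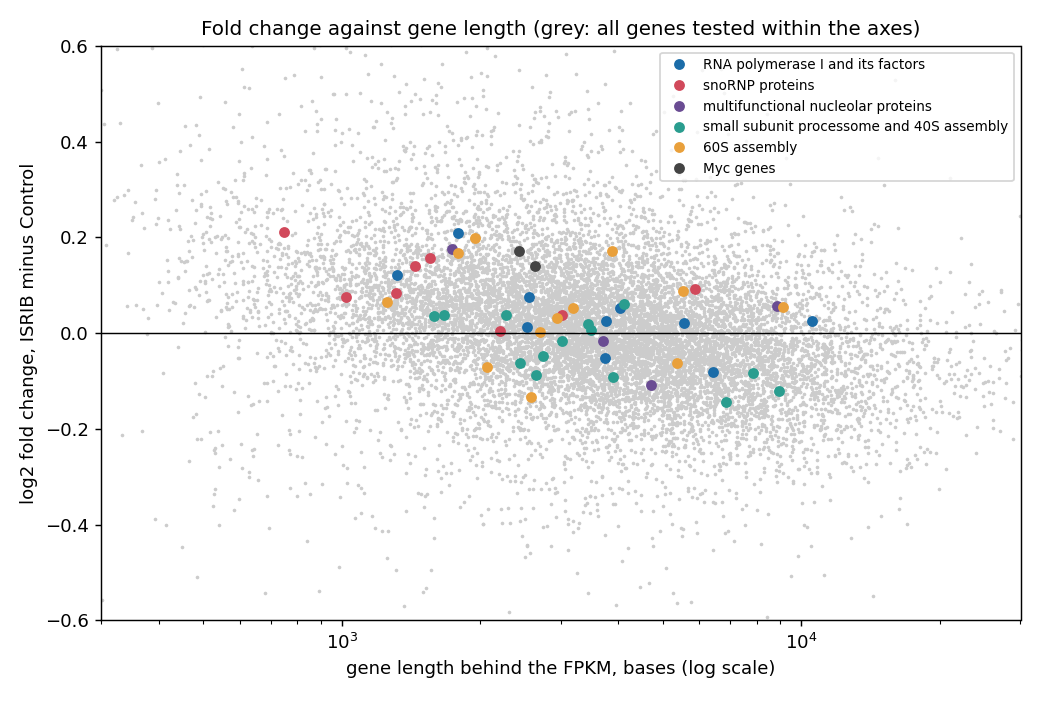
Log2 fold change (ISRIB minus Control) against the gene length behind the FPKM in bases (log axis), for the 50 genes coloured by role and for the genes tested in grey. Short genes sit higher than long ones, with Spearman's rho at −0.470 across the 50 genes.

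The levels of the 50 genes spanned 3.31 FPKM for Wdr12 to 311 FPKM for Npm1 in Control, with a median of 23.3. After Npm1 came Ncl at 94.5 ± 2.29, Fbl at 72.6 ± 0.789, Nop58 at 59.5 ± 3.53 and Nop10 at 44.1 ± 3.28 FPKM. Polymerase I genes were lower, with a median of 14.5 and a highest mean of 29.2 FPKM. Comparison between genes depends on the length assigned to each. The length behind the FPKM was 5878 bases for Nop56, where its longest coding transcript in GENCODE has 1877, and 10535 for Ubtf, where it has 4692, and an overlong length lowers the FPKM. Every one of the 50 genes rested on at least 670 reads in each library.

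Some of the 50 genes also host snoRNAs. GENCODE places snoRNA genes on the same strand inside Taf1d (8), Nop56 (5), Nop58 (4), Ncl, Wdr43 and Gnl3 (3 each), Tsr1 (2) and Dkc1 (1), so that splicing of these transcripts also releases guides of the same pathway. Their means were higher in ISRIB for 8 of 8, with a median of 0.05 and 1 of 8 with groups apart, beside 22.8% of all genes, and 4 of 8 were higher after TPM rescaling. The 42 genes without a snoRNA had 27 higher and a median of 0.03.

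In the rest of the pathway no gene passed either. Of 105 further subunits, processing factors and Myc partners found under their symbols, 0 passed in limma and 0 in voom, and for 14 limma's p before adjustment was under 0.05, 11 with a higher and 3 with a lower mean in ISRIB, or 13.3% beside 16.4% of all genes. Their median was 0.01, with 58 higher and 47 lower. Imp3, a protein of the U3 snoRNP, was the lowest in p, with 47.3, 48.2 and 48.5 FPKM in Control and 55.1, 57.8 and 58.8 in ISRIB (limma adjusted p = 0.0876, and 0.069 to 0.290 over 18 alternatives). Its groups were well apart, and of a log2 fold change of 0.25 (SE 0.0418) 0.16 remained after removal of the length trend. Polr1d, the partner of Polr1c in the polymerase, had 19.2, 17.5 and 17.3 FPKM in Control and 21.2, 20.9 and 22.2 in ISRIB, also apart (limma adjusted p = 0.118 for a log2 fold change of 0.25, and 0.21 after removal of the trend). The nucleolar protein gene Rsl1d1 was at 60.3 ± 2.57 FPKM in Control and 70.9 ± 2.55 in ISRIB, the shared polymerase subunit Polr2f at 45.4 ± 1.03 and 50.9 ± 1.49, and Sbds, which frees the new large subunit for translation, at 26.5 ± 1.97 and 31.4 ± 2.12 (limma adjusted p 0.104 to 0.163). Of these, Polr2f had a fold change of 0.04 without the length trend. The lower ones with the smallest p were Nol6 (−0.18), the giant ATPase Mdn1 (−0.25, and −0.17 without the length trend), the helicase Dhx37 (−0.18), the processome protein Wdr36 (−0.14) and the RNA acetyltransferase Nat10 (−0.14), with limma adjusted p values of 0.151 to 0.366.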

How the data were processed

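The authors deposited FPKM values per gene, 1 column per library, and per the submitters' processing notes fastp, HISAT2, HTSeq, R 3.2.0, DESeq2 and the build mm10 were used, with no roles given. Neither the annotation nor the strand setting of the counting is stated in those notes or labels. Groups were taken from sample titles. The test was limma 3.58.1 (R 4.3.3) on log2(FPKM + 0.5), two-sided, with 2 groups and a moderated variance that follows mean expression. It took in the 12922 genes averaging 1 FPKM or more over the libraries, with Benjamini-Hochberg adjustment over all of them and a threshold of 0.05. Fold changes on this scale understate those of low genes. Whole reads were recovered from the FPKM for 100.0% of genes (tolerance 0.01 read), which gave totals, voom input and the gene lengths used for a loess correction (span 0.5). Between replicates the chi-square per gene was 8.94 to 23.1, where sampling alone gives about 1, so no pair was a duplicate. Tables and figures used Python 3.11.15, pandas 2.3.3 and matplotlib 3.10.9. The fit and the recovery were tested on simulated data.

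The members and lists were chosen with earlier results of these data known. Values in every library are given for the 3 genes of each role with the smallest p and for 10 genes set by name, and of the other pathway genes the 5 higher and 5 lower ones of smallest p are named. Gnl3, Egr1 and Fos were given in every library, or by range, after their values were seen. Positions are from GENCODE M21 and promoters from RefSeq (GRCm38.p6). Alternatives covered pseudocounts of 0.1 and 1, filters, scalings, the spread model, the replicate block, each library left out, length and voom.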

Additional observations from a re-analysis of the deposited data

How the results depend on the processing

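Under each of the 18 alternatives, 0 of the 50 genes (49 under the stricter filter, which left out Wdr12) and 0 of the 105 other pathway genes passed. Over all genes the number called in place of 0 was 8 with a mean FPKM of at least 5, 11 with the replicate block, 120 in voom and 23 in voom with the length trend removed, an alternative chosen after seeing the data. With TPM rescaling, which moved the median of all genes to −0.05, the number of the 50 genes higher in ISRIB was 22 and their median −0.02. The medians there were −0.03 for polymerase I genes, −0.03 for multifunctional nucleolar proteins and −0.05 for other pathway genes. Ubtf and Rrn3 were at −0.03 there and Dkc1 and Nob1 at −0.01. Quantile normalization gave −0.02 for multifunctional nucleolar proteins and −0.01 for Ncl. Nob1 was at −0.03 with the length trend removed, in limma and in voom. With single libraries left out, the number higher was 25 to 39 and the median of the set 0.01 to 0.06. The median was then 0.03 to 0.05 for polymerase I genes and −0.02 to 0.06 for multifunctional nucleolar proteins. Rrn3 was at 0.00 to 0.05 and Nob1 at −0.02 to 0.08. Of 558 values of single genes under alternatives, 549 kept their direction and side of the threshold, and the cause of the other 9 was not tested. Same-numbered libraries did not deviate together (correlations of −0.19, −0.0909 and 0.192 for pairs 1, 2 and 3). The numbers were therefore not used as pairs. Of all pairs of a Control and an ISRIB library, Control replicate 2 and ISRIB replicate 1 had the largest correlation, at 0.355. Control replicate 2 and ISRIB replicate 3 had the lowest, at −0.337. These correlations are over all genes tested. The intervals given are not adjusted for the number of genes tested, and 3 libraries a group limit their precision.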

Other observations

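The composite site that ATF4 and its partners bind in stress-response genes, searched as TGATGNAA on both strands, was present in the promoter windows of 1 of 42 genes of the set (2.38%) and of 2.65% of the 10342 tested genes with a window.

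Exons of 20 of the 50 genes overlap those of another gene in GENCODE M21, on the other strand in each case. Their median was 0.04 on the log2 scale and groups were apart for 5 of the 20, while the other 30 genes had a median of 0.03 and 5 with groups apart. Over all genes tested the groups were apart for 22.8%.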
